A study of Rattus norvegicus with 6 samples.

Results

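The genes described here encode the proteins of the mitochondrial ribosome. They were taken as the genes whose annotated symbol is Mrpl or Mrps followed by a number, which gave 73 genes, 46 Mrpl genes of the large subunit and 27 Mrps genes of the small subunit, of 14217 genes named on the array. Where a gene had several probe sets, the brightest by its mean across the 6 arrays stood for it. Liver RNA of 3-week-old Sprague-Dawley rat pups was measured on Affymetrix expression arrays, 1 array per pup, at weaning. The pups fell into 2 groups, 3 pups whose dams were fed a high fat diet and 3 pups whose dams were fed standard chow, called high fat pups and control pups below. The diets were those of the dams, and the question is whether maternal diet goes with different transcript levels in the offspring's liver. Litters are not named in the labels, so a p-value here measures only pup-to-pup spread, and littermates would share a dam.

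Mitochondria keep a small genome of their own, whose protein-coding genes all specify core subunits of the respiratory chain and of ATP synthase. A dedicated ribosome inside the organelle translates them. Its RNAs are made in the mitochondrion, but every one of its proteins is encoded in the nucleus, made in the cytosol and imported. Compared with the bacterial ribosome from which it descends, it has lost RNA and gained proteins, so some members have a bacterial counterpart and others are found only in mitochondria. The liver, with its high rate of fatty acid oxidation and gluconeogenesis, is rich in mitochondria. Known regulators of nuclear genes for mitochondrial proteins include the transcription factors NRF1, GABP and YY1 and the coactivators of the PGC-1 family.

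The promoters of 4 members are shown because these had the smallest p-values in each subunit and direction, and because the letters can be read against the binding motifs of those 3 factors. Each window runs from 250 bases before to 50 bases after the annotated start, 5′ to 3′ on the strand of the gene, from RefSeq on build GRCr8. Mrpl51 lies at chr4:159677738-159678037 on the plus strand and Mrpl28 at chr10:15652929-15653228 on the plus strand. The window of Mrps21 lies at chr2:186103302-186103601 on the minus strand, and that of Mrps6 at chr11:44778417-44778716 on the plus strand. Capitals mark a match to the YY1 motif AAGATGGC, which only Mrps6 held among these 4, on the strand shown.
Mrpl51: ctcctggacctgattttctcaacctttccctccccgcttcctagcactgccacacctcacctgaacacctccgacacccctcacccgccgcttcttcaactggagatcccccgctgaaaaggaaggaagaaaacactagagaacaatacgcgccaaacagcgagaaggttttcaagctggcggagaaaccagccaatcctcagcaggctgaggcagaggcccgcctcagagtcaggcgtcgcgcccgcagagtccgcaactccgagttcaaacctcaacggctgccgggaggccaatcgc
Mrpl28: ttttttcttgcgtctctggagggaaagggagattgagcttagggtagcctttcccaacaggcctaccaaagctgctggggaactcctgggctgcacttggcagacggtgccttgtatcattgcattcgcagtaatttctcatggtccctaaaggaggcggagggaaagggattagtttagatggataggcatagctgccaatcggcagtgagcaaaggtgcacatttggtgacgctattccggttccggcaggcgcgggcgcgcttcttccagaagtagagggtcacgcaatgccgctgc
Mrps21: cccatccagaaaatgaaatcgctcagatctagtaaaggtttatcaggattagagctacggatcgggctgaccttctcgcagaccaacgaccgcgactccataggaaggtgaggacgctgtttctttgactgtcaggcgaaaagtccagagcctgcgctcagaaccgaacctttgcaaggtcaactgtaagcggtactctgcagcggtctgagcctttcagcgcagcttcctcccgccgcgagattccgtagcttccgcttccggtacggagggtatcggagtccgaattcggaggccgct
Mrps6: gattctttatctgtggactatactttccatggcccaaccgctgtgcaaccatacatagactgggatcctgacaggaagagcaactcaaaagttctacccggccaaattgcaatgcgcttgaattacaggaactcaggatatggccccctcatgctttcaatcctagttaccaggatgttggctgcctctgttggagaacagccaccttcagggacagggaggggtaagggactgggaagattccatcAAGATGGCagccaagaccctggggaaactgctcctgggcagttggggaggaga

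Of the 73 members, 59 had a promoter in the table. The YY1 motif, read on both strands, was in 14 of them, 23.7%, against 5.77% of the promoters of all genes tested and 3.44% of all promoters in the table. The motif CCGGAAGT of the ETS family, to which the DNA-binding subunit of GABP belongs, was in 8, 13.6%, against 8.7% of tested genes and 4.01% of all promoters. The NRF1 core GCGCATGC was in 5, 8.47%, against 5.06% of tested genes and 2.66% of all. The full NRF1 palindrome, the core followed by GC, was in 4 members, 6.78%, against 2.03% of tested genes and 0.932% of all, and a form with its 2 central bases free was in 12, 20.3%, against 13.2% and 6.15%. At least 2 of the 3 motifs of 8 letters were in 4 members, none of the 3 was in 36, and sites of 2 motifs overlapped in no member. The 14 promoters with the YY1 motif belonged to Mrpl32, Mrpl36, Mrpl37, Mrpl42, Mrpl46, Mrpl48, Mrpl49, Mrpl50, Mrps6, Mrps7, Mrps18a, Mrps18b, Mrps27 and Mrps30. A match of letters is a description of the sequence, and a window without one says only that these letters are not in it.

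Values are log2 signals after quantile normalization, so a difference of 1 is a doubling of signal. Signals of different probe sets are not comparable with each other, so each gene is read only across arrays. All 73 members lay above the limit of 5.83 below which probe sets were left out, with mean log2 signals of 8.82 to 12.25, and all entered the test over 10372 genes. The hepatocyte markers Alb, Apoa1, Ttr and Serpina1 had log2 signals of 14.46 to 14.86 in high fat pups and 14.54 to 14.93 in control pups. High fat replicate 1 also carried transcripts of the exocrine pancreas: the summed linear signal of 7 pancreatic markers was 38259 there, 327 and 419 in the other high fat pups and 306 to 407 in control pups. High fat replicate 3 differed from the other pups in sex-linked transcripts, with Xist at 4.45, against 12.51 and 12.92 in the other high fat pups and 12.46 to 13.31 in control pups, and Eif2s3y at 11.14, against at most 3.99 in the other 5. All 5 markers of sinusoidal endothelium were lower in high fat pups with no overlap, at a summed linear signal of 9066 to 11226, against 15388 to 18035 in control pups. The 3 erythroid markers tested were also lower, Slc4a1 without overlap (-0.96, SE 0.29). The summed signal of 4, most of it from Hbb, was 21473 to 25390 in high fat pups, against 22912 to 30567 in control pups. Of 3 macrophage markers 2 were lower, Cd163 without overlap (-0.52, SE 0.19). The summed signal of the 3, most of it from Clec4f, was 4405 to 8484 in high fat pups, against 5747 to 7248 in control pups. Control replicate 3 had the widest gap between 3′ and 5′ probe sets of Actb and Gapdh, a sign of RNA integrity, at a mean of 3.06 log2 units, against 1.92 to 2.46 in the other 5 pups. No marker of these cell types was listed at 0. A bulk sample cannot tell fewer cells of a type from less RNA per cell, and the part of these differences in the values below was not tested.

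Mitochondrial ribosomal protein transcripts were slightly lower in most members in the livers of high fat pups, and none passed the test. Of the 73 members, 53 had a lower mean in high fat pups, 72.6%, where 53.1% of all genes tested did. The median log2 change was -0.11, against -0.02 over all genes tested. No member reached a limma adjusted p under 0.05, a level that 4 of 10372 genes, 0.0386%, reached. At an unadjusted p under 0.05, 4 members were lower, 5.48% of the members against a background of 7.49%, and 1 was higher, against a background of 6.55%. Counted by single genes, the members were thus called no more often than genes at large.

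The members shared a direction more than a size. In 17 members, 23.3%, all 3 high fat pups lay below all 3 control pups, where 11.6% of all genes tested did, and in 4 members all high fat pups lay above, where 9.26% did. Without control replicate 3 the first count was 26, against 16.7% of all genes, and without control replicate 2 the second was 8, against 15.3%. The lower quartile of the members' changes was -0.18 and the upper quartile 0.0064, against -0.21 and 0.17 over all genes tested. The extremes were Mrpl51 at -0.42 and Mrps6 at 0.56, so that no member reached 1.5-fold, a size that 1012 of all genes tested passed. Spread between pups was also small: the median SD of a member was 0.104 in high fat pups and 0.130 in control pups, against 0.190 and 0.214 over all genes tested. The members were brighter, at a median log2 level of 10.94, against 9.07 over all genes tested. Spread and size of change were not compared at like brightness.

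**Figure D1:**
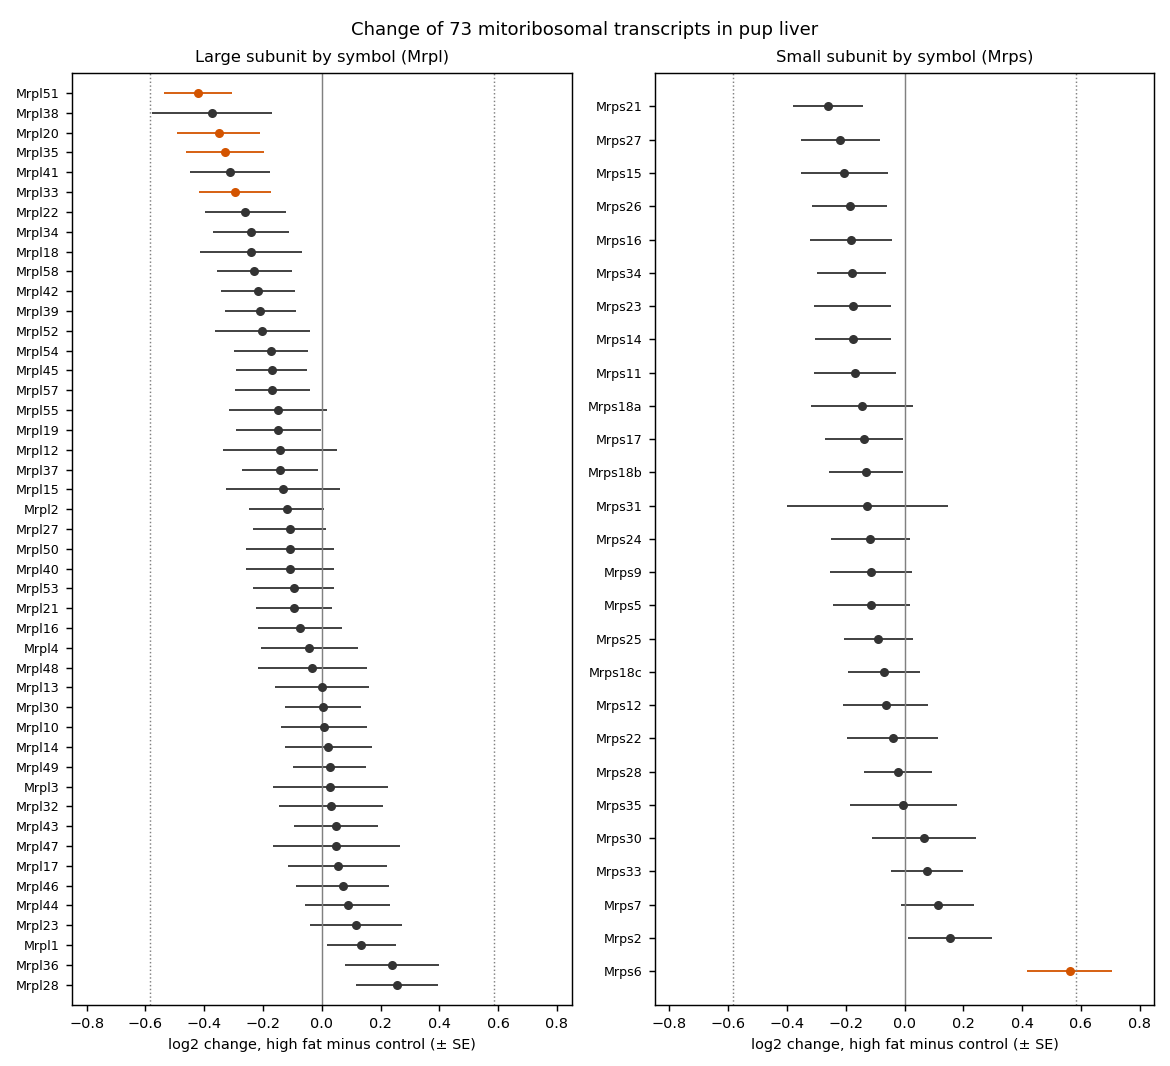
Log2 change of each of the 73 members, high fat minus control, with limma's standard error as bars (n = 3 pups a group), Mrpl genes on the left and Mrps genes on the right. Orange marks the 5 members at an unadjusted p under 0.05, and dotted lines mark 1.5-fold. Most points lie left of 0 and none lies beyond a dotted line.

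By array, the members also differed within each group, and many had their extreme value in the same array. The median over members of the value minus the control mean was -0.10, -0.15 and -0.084 in high fat replicates 1, 2 and 3, against -0.047, 0.064 and -0.0069 in control replicates 1, 2 and 3. The 3 high fat values lay below the 3 control values, but the gap between high fat replicate 3 and control replicate 1 was smaller than the range within either group. High fat replicate 2 held the lowest value of 31 members, 42.5%, where it held that of 20.3% of all genes tested. Control replicate 2 held the highest value of 27 members, 37.0%, against 16.5% of all genes. With high fat replicate 1, the one with pancreatic transcripts, left out, 54 of 73 members were lower at a median of -0.099. With high fat replicate 3, the one with the other sex-linked pattern, left out, 57 were lower at a median of -0.12. The smallest shift, 49 members lower at a median of -0.080, came without control replicate 2.

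**Figure D2:**
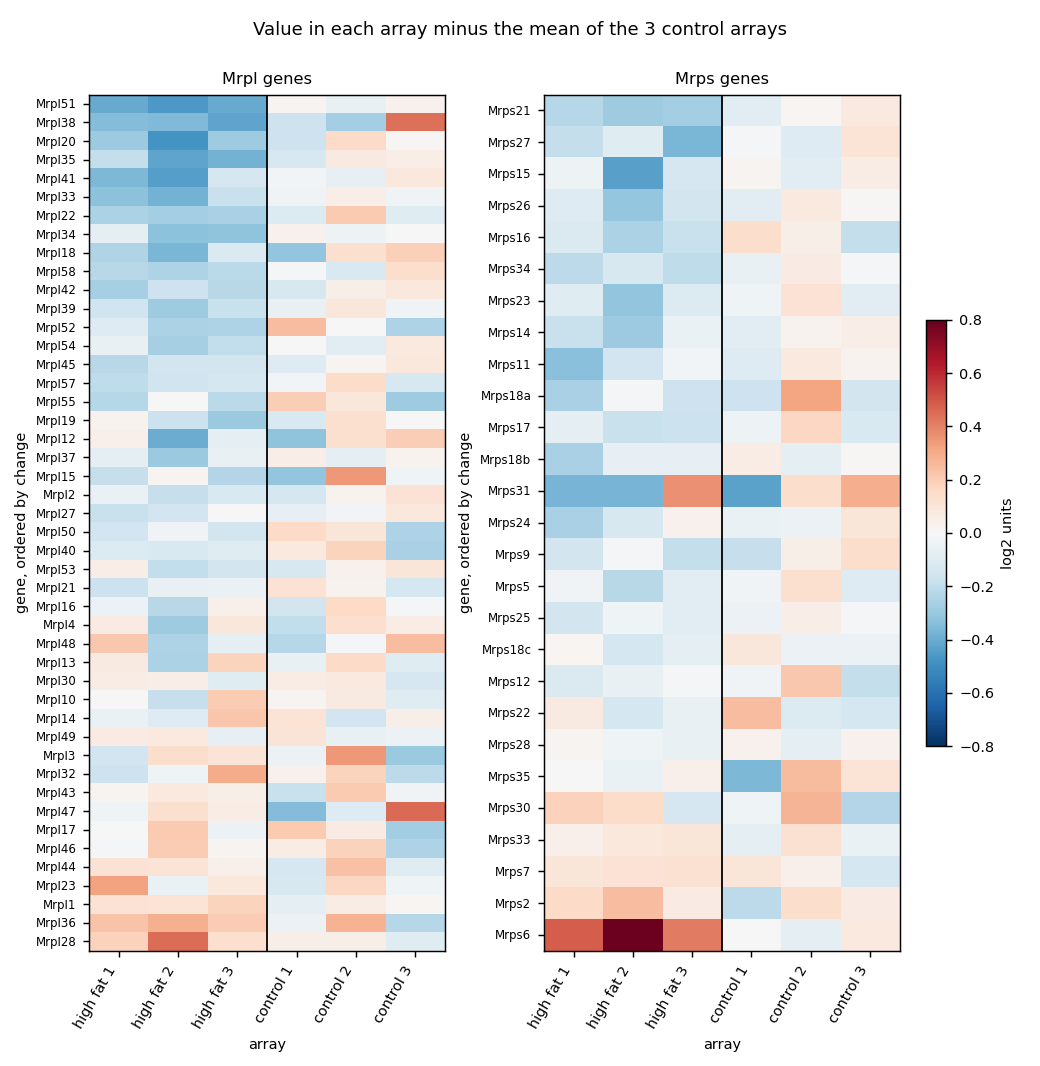
Each row is a member and each column an array, high fat pups left of the black line and control pups right of it. Colour gives the log2 value minus the mean of the 3 control pups, blue lower and red higher. Blue prevails in the upper rows of the high fat columns, and Mrps6 is the darkest red row.

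Large-subunit members were lower in 31 of 46 genes, 67.4% against 53.1% of all genes tested, with a median log2 change of -0.11. The 4 members that were lower at an unadjusted p under 0.05, Mrpl51, Mrpl20, Mrpl35 and Mrpl33, were 8.70% of this subunit, near the 7.49% of all genes. That count depended on single pups: it was 2 without high fat replicate 1 or 3, and 1 without high fat replicate 2, control replicate 2 or control replicate 3. Mrpl51, a protein found only in mitochondrial ribosomes, had log2 signals of 11.42, 11.36 and 11.42 in high fat pups, against 11.85, 11.77 and 11.86 in control pups. The groups were far apart relative to the spread within them, and the transcript was 1.34-fold lower (log2 change -0.42, SE 0.12, limma adjusted p = 0.224). Its 95% interval ran from -0.70 to -0.15. Mrpl51 was measured by 4 probe sets, and 3 of them gave -0.42, -0.40 and -0.41 while the fourth gave -0.075.

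Mrpl20, the counterpart of a bacterial protein needed for early assembly of the large subunit in Escherichia coli, had 10.91, 10.72 and 10.92 in high fat pups, against 11.03, 11.36 and 11.21 in control pups. The groups did not overlap, but control replicate 1 lay near the high fat pups (log2 change -0.35, SE 0.14, limma adjusted p = 0.344). Mrpl35 had 10.60, 10.36 and 10.41 in high fat pups, against 10.66, 10.86 and 10.84 in control pups. Here too only control replicate 1 came close, to high fat replicate 1 (log2 change -0.33, SE 0.13, limma adjusted p = 0.345). Mrpl33, the counterpart of a small bacterial protein that often binds zinc, had 11.70, 11.65 and 11.85 in high fat pups, against 12.001, 12.081 and 12.002 in control pups, with no overlap (log2 change -0.30, SE 0.12, limma adjusted p = 0.349).

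Mrpl41, a mitochondria-specific protein, followed at -0.31 (SE 0.14), with 11.88, 11.80 and 12.11 in high fat pups, against 12.23, 12.18 and 12.33 in control pups. Mrpl22, whose bacterial counterpart lines the tunnel through which the new chain leaves, had 11.45, 11.43 and 11.44 in high fat pups, against 11.59, 11.91 and 11.60 in control pups. The 3 high fat values were nearly identical, and the spread lay in the controls (log2 change -0.26, SE 0.14, and -0.16 without control replicate 2). Mrpl58, which in human cells also acts as a peptidyl-tRNA hydrolase that frees stalled ribosomes, was at 10.73, 10.71 and 10.74 in high fat pups, against 10.94, 10.83 and 11.10 in control pups, again with no overlap (log2 change -0.23, SE 0.13). Mrpl45, which in mammals sits at the tunnel exit and helps tie the ribosome to the inner membrane, was at 9.80, 9.87 and 9.88 in high fat pups, against 9.92, 10.04 and 10.11 in control pups. None of these 4 had a limma adjusted p under 0.37. Mrpl38 had the second most negative change, -0.37, but a standard error of 0.20. It stood at 8.66, 8.65 and 8.58 in high fat pups, against 8.84, 8.73 and 9.44 in control pups, and the change was -0.15 without control replicate 3.

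**Figure D3:**
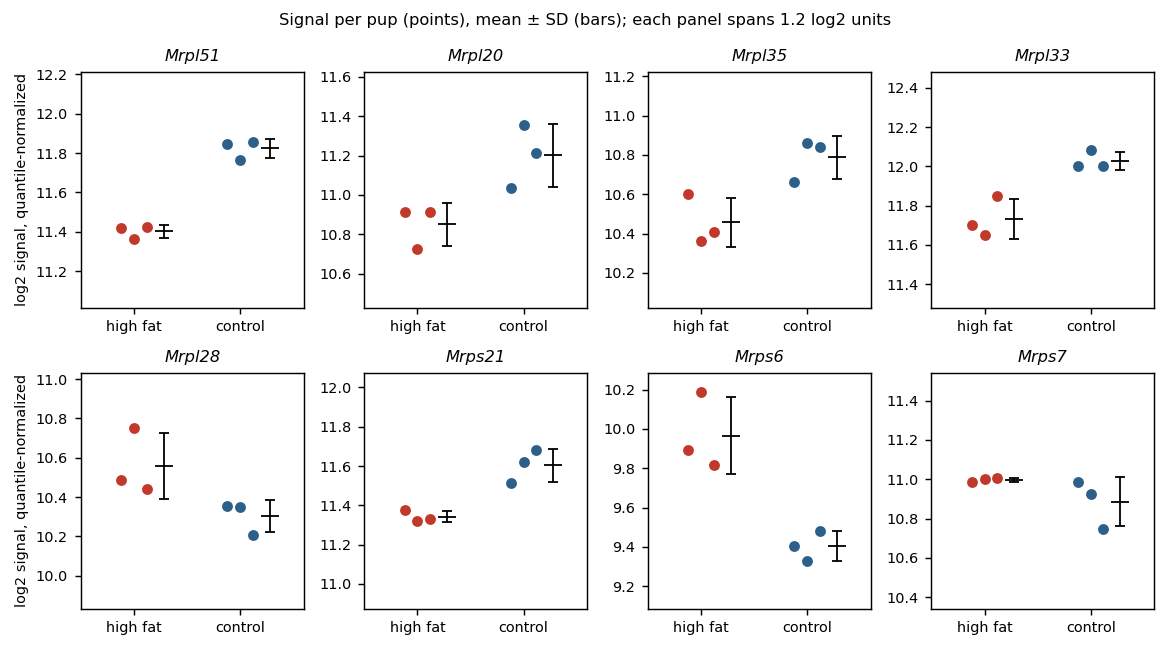
Log2 signal in each pup for 8 members, high fat pups in red on the left and control pups in blue on the right, with the mean and SD of each group (n = 3). Every panel spans 1.2 log2 units. Mrpl51 and Mrps6 show the clearest separation of the groups, in opposite directions, and Mrps7 has control values that nearly reach the high fat values.

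On the other side, 15 large-subunit members were higher, none of them at an unadjusted p under 0.05. Mrpl28 had 10.49, 10.75 and 10.44 in high fat pups, against 10.35, 10.35 and 10.21 in control pups, with no overlap (log2 change 0.26, SE 0.14, limma adjusted p = 0.470; log2 change 0.16 without high fat replicate 2). Mrpl36, whose counterpart is among the smallest bacterial ribosomal proteins, had 10.72, 10.77 and 10.69 in high fat pups, against 10.44, 10.77 and 10.26 in control pups, and control replicate 2 lay inside the high fat range (0.24, SE 0.16). Mrpl1, the counterpart of the protein of the bacterial stalk near the exit site, was higher without overlap by 0.13 (SE 0.12). Mrpl23 and Mrpl44 were at 0.12 (SE 0.16) and 0.088 (SE 0.15), with overlapping groups, and Mrpl46 was at 0.070 (SE 0.16). Mrpl44 has an RNase III-like fold, and changes in human MRPL44 cause a combined oxidative phosphorylation deficiency.

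Some members are known from other work for roles near the edge of the ribosome or for human disease, Mrpl12 and Mrpl3 among them. Both had differences smaller than their standard errors. Mrpl12, which in human cells also binds the mitochondrial RNA polymerase, had 12.36, 11.92 and 12.25 in high fat pups, against 11.99, 12.45 and 12.51 in control pups. Its groups overlapped widely, and the 95% interval of the change ran from -0.60 to 0.32. Mrpl3, another gene of human oxidative phosphorylation deficiency, had 10.66, 10.96 and 10.92 in high fat pups, against 10.77, 11.16 and 10.52 in control pups (log2 change 0.029, SE 0.19). Mrpl13 averaged 10.424 ± 0.223 in high fat pups and 10.425 ± 0.135 in control pups (SD, n = 3 each), the smallest difference of any member.

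Small-subunit members were lower in 22 of 27 genes, 81.5% against 53.1% of all genes, with a median log2 change of -0.12, close to that of the large subunit. In 4 of the 27, 14.8%, all high fat pups lay below all control pups, near the 11.6% of all genes tested. In the large subunit this held for 13 of 46 members, 28.3%. In 2 members of each subunit all high fat pups lay above, where 9.26% of all genes did. No small-subunit member was lower at an unadjusted p under 0.05. Mrps21 came nearest, at 11.38, 11.32 and 11.33 in high fat pups, against 11.51, 11.62 and 11.68 in control pups (log2 change -0.26, SE 0.12, limma adjusted p = 0.392). Its counterpart in bacteria sits beside the channel of the messenger RNA. Mrps34 and Mrps26, both mitochondria-specific, were also lower without overlap, by -0.18 (SE 0.12) and -0.19 (SE 0.13), and Mrps23 lay at -0.18 (SE 0.13) with no overlap either. Mrps34 had 11.46, 11.54 and 11.47 in high fat pups, against 11.61, 11.73 and 11.66 in control pups. Mrps27, a pentatricopeptide repeat protein, and Mrps15 had changes of -0.22 (SE 0.14) and -0.20 (SE 0.15), each with 1 high fat pup inside the control range. With probe sets averaged these were -0.76 and -0.44, but each average takes in a probe set below the brightness limit. That of Mrps27 had a mean log2 signal of 3.32 and a change of -1.64, and that of Mrps15 had 5.80 and -0.67. Mrps15 was at -0.090 without high fat replicate 2.

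The member with the greatest difference of all was Mrps6, and it was higher. It had 9.89, 10.19 and 9.82 in high fat pups, against 9.40, 9.33 and 9.48 in control pups. Every high fat pup lay above every control pup, and the transcript was 1.48-fold higher (log2 change 0.56, SE 0.15, limma adjusted p = 0.211), with a 95% interval of 0.22 to 0.91. In the RefSeq gene table Mrps6 overlaps Slc5a3, which encodes the sodium-coupled myo-inositol transporter. Slc5a3 was read by the brighter of its own 2 probe sets. It stood at 7.52, 11.16 and 9.95 in high fat pups, against 7.34, 7.17 and 8.28 in control pups. Its groups overlapped (log2 change of Slc5a3 1.95, SE 0.86, limma adjusted p = 0.375). High fat replicate 2 was highest for both genes. High fat replicate 1 lay inside the control range for Slc5a3 and above all control pups for Mrps6. Whether the probe set of Mrps6 reads transcript shared with Slc5a3 was not tested.

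The other higher members of the small subunit were Mrps2, Mrps7, Mrps33 and Mrps30. Mrps7, the counterpart of the bacterial protein that starts assembly of the head of the small subunit, lay between 10.985 and 11.008 in high fat pups, against 10.984, 10.926 and 10.745 in control pups. No values overlapped, but the lowest high fat pup and the highest control pup differed by less than the spread of the controls (log2 change 0.11, SE 0.13). Mrps2 was at 0.15 (SE 0.14), Mrps33 at 0.075 (SE 0.12) and Mrps30 at 0.066 (SE 0.18), all with overlapping groups.

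Among members with lower means and overlapping groups were Mrps16 and Mrps22, both genes of human mitochondrial disease, and Mrps12. Mrps16 was at -0.18 (SE 0.14), Mrps22 at -0.040 (SE 0.15), and Mrps12, whose bacterial counterpart belongs to the decoding centre, at -0.064 (SE 0.15). Of the paralogs Mrps18a, Mrps18b and Mrps18c, which descend from 1 bacterial protein, the changes were -0.15 (SE 0.17), -0.13 (SE 0.13) and -0.068 (SE 0.12). In mammalian ribosomes Mrps18a and Mrps30 are parts of the large subunit in spite of their symbols. With both moved there, 32 of 48 large-subunit and 21 of 25 small-subunit members were lower, at medians of -0.11 and -0.12. Mrpl11 and Mrps36 were not analysed here, since no probe set was paired with either. Mrpl9, Mrpl24 and Mrps10 were not among the members either.

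The precision of 3 pups a group bounds what these values can show. The 95% interval of a member's log2 change extended by a median of 0.33 to either side of it. It lay inside 1.5-fold in either direction for 59 of 73 members and reached that size for 14, and for all 73 it lay inside 2-fold. The lowest bound of any member was -0.86, for Mrpl38, and the highest was 0.91, for Mrps6. Differences of the size seen in most members, around 0.1, are smaller than that 0.33.

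Mitochondria-specific members and those with a bacterial counterpart leaned the same way. Of the 29 mitochondria-specific members 23 were lower, 79.3% against 53.1% of all genes tested, with a median of -0.14, or -0.094 without control replicate 2. Of the 29, 11 were lower without overlap, 37.9% against 11.6% of all genes, and none was higher without overlap. Of the 41 with a bacterial counterpart 27 were lower, 65.9%, with a median of -0.095, or -0.056 without control replicate 2. Of the 41, 6 were lower without overlap, 14.6% against the same 11.6%, and 4 were higher without overlap, where 9.26% of all genes were. Mrpl55, Mrps18a and Mrps18b were put in neither class. The difference between the classes was not tested.

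The 14 members with a YY1 motif divided evenly, with 7 lower and a median of -0.0034, while 33 of the 45 without it were lower, at a median of -0.14. With the ETS motif, 7 of 8 were lower at a median of -0.10, against 33 of 51 at -0.13 without it. With the NRF1 core 2 of 5 were lower at 0.030, against 38 of 54 at -0.12. With the full NRF1 palindrome 1 of 4 was lower at 0.042, against 39 of 55 at -0.13. With its 2 central bases free 5 of 12 were lower at 0.013, against 35 of 47 at -0.13. These splits are descriptions over few promoters and were not tested.

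Several members have more than 1 probe set, a gene that overlaps them by position or a named copy. Of the 18 members with several probe sets, 7 had probe sets of opposite sign, Mrpl37, Mrpl40, Mrpl49, Mrps2, Mrps9, Mrps18c and Mrps24. For Mrps2 and Mrps18c the opposing probe sets lay below the brightness limit, which leaves 5. For Mrps9 the probe sets were of like brightness, with mean log2 signals of 10.36 and 10.23, and gave changes of -0.11 and 0.13. For Mrpl37 the brightest, at 11.57, gave -0.14 and a much dimmer one, at 6.08, gave 0.57. Of all members, 16 overlap a protein-coding gene, Mrps6 among them, in the RefSeq gene table, and 22 have a named copy, most often a pseudogene. Overlap was read from gene positions only, and strands and exons were not compared. Mrpl41, Mrpl42 and Mrps21 have a protein-coding copy, so their signals may include it.

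Mitoribosomal proteins that carry other names leaned the same way. Of 5 such genes measured, 4 were lower, at a median of -0.24. Aurkaip1, a small-subunit protein first named for binding the Aurora A kinase, had 11.02, 10.92 and 10.92 in high fat pups, against 11.39, 11.39 and 11.42 in control pups. The groups were widely separated (log2 change -0.44, SE 0.12, limma adjusted p = 0.211). Gadd45gip1, of the large subunit, was at -0.24 (SE 0.13) and Chchd1, of the small subunit, at -0.15 (SE 0.11), both without overlap. Dap3, the GTP-binding protein of the small subunit, was at -0.32 (SE 0.21) with control replicate 3 inside the high fat range, and at -0.14 without control replicate 1. Ptcd3, a pentatricopeptide repeat protein of the small subunit, was at 0.089 (SE 0.13).

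Genes that build or serve the mitochondrial ribosome divided between both directions. Among 27 tested genes of ribosome assembly and rRNA modification 17 were higher and 10 lower, with a median of 0.11, or 0.037 without control replicate 1 and 0.17 without control replicate 2. At an unadjusted p under 0.05, 2 were higher and 2 lower, 7.41% in each direction, near the 6.55% and 7.49% of all genes. Noa1, a GTPase that helps assemble the small subunit, was at 8.36, 8.39 and 8.31 in high fat pups, against 7.64, 7.21 and 7.87 in control pups (log2 change 0.78, SE 0.18, limma adjusted p = 0.194). Tfb1m, which methylates the small-subunit rRNA, was at 0.42 (SE 0.13, limma adjusted p = 0.269). Malsu1, which keeps the large subunit from joining too early, had 11.02, 10.80 and 11.06 in high fat pups, against 11.50, 11.27 and 11.32 in control pups (-0.40, SE 0.14, limma adjusted p = 0.293). All 3 had groups without overlap.

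Among 18 genes of mitochondrial translation and tRNA modification 11 were higher and 7 lower, with a median of 0.073. Without the tRNA-modifying enzymes Gtpbp3, Mto1, Trmu and Trmt10c, the insertase Oxa1l and the membrane protein Letm1, 7 of 12 were higher, at a median of 0.073. Mtres1, a factor that rescues stalled mitochondrial ribosomes in human cells, was at -0.53 (SE 0.16, limma adjusted p = 0.259), and the release factor Mtrf1 and the tRNA modification enzyme Gtpbp3 were at 0.44 (SE 0.17) and 0.37 (SE 0.15). Of 16 genes that charge mitochondrial tRNAs 8 were higher and 8 lower, at a median of 0.011. Among them 13 encode aminoacyl-tRNA synthetases, of which 8 were higher and 5 lower, and the other 3, Gatb, Gatc and Qrsl1, encode an amidotransferase and were all lower. Yars2, the tyrosyl-tRNA synthetase, was at 0.27 (SE 0.12), Hars2 at 0.12 (SE 0.11) and Fars2 at -0.15 (SE 0.13). Of 15 genes for upkeep and transcription of mitochondrial DNA 8 were higher and 7 lower, at a median of 0.013. Mgme1, an exonuclease of mitochondrial DNA replication, and the elongation factor Tefm were at 0.49 (SE 0.16) and 0.33 (SE 0.12). Slirp, which with Lrpprc stabilises mitochondrial messenger RNA, was at -0.31 (SE 0.13), and at -0.14 with its probe sets averaged. No gene of these 4 lists reached a limma adjusted p under 0.05.

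Of 10 regulators of nuclear genes for mitochondrial proteins, 7 were higher and 3 lower. Ppara, the fatty acid receptor that controls fatty acid oxidation in liver, had 7.92, 7.55 and 7.97 in high fat pups, against 6.40, 6.82 and 6.35 in control pups. The groups did not overlap (log2 change 1.29, SE 0.19, limma adjusted p = 0.131). The subunits of GABP pointed apart: Gabpa, which binds DNA, was at 0.26 (SE 0.16), or 0.10 with a covariate for RNA integrity, and its partner Gabpb1 at -0.54 (SE 0.21), with high fat replicate 2 inside the control range. Nrf1 was at -0.11 (SE 0.19) and Yy1 at 0.16 (SE 0.13), both with overlapping groups. Of the PGC-1 family, Ppargc1a was at 0.12 (SE 0.21), Ppargc1b at 0.63 (SE 0.39) and Pprc1 at 0.42 (SE 0.27), all with overlap.

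**Figure D4:**
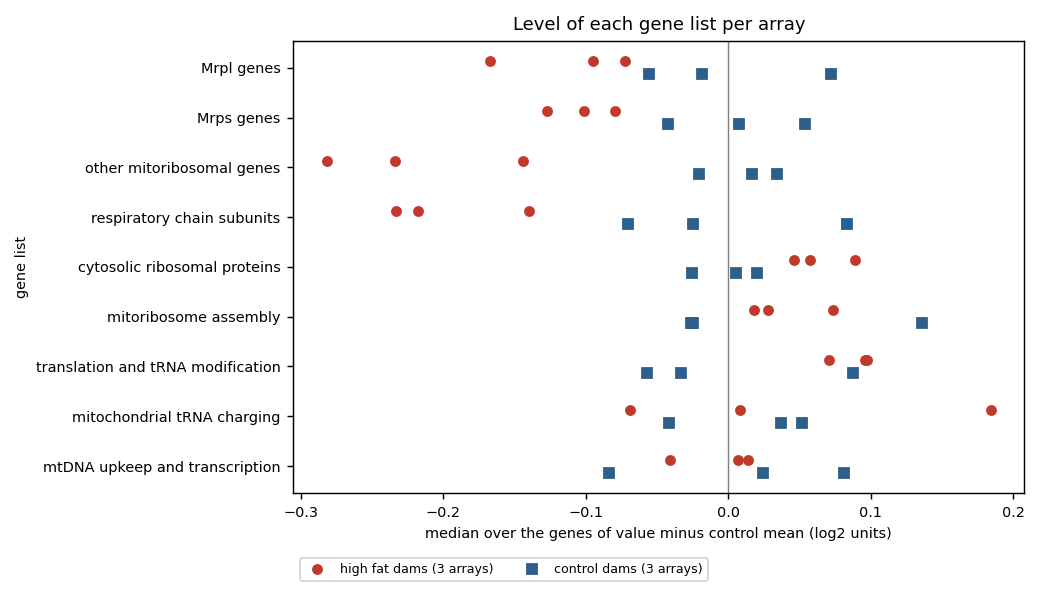
Median over the genes of a list of the log2 value minus the control mean, 1 point per array, high fat pups as red circles above control pups as blue squares. For the Mrpl and Mrps genes, the other mitoribosomal genes and the respiratory chain the 3 red circles lie left of the 3 blue squares, for cytosolic ribosomal proteins they lie right of them, and in the other 4 lists the groups overlap.

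Nuclear genes of the respiratory chain and ATP synthase were lower in 70 of 73 genes, at a median of -0.20. Without complex II, which has no mitochondrially encoded subunit, and the pseudogene Cox6c-ps1, 66 of 68 were lower, at the same median. In 40 of the 73, 54.8% against 11.6% of all genes, all high fat pups lay below all control pups. At an unadjusted p under 0.05, 10 were lower, 13.7% against 7.49% of all genes. Ndufs4, a subunit of complex I, had 10.53, 10.23 and 10.53 in high fat pups, against 11.04, 11.18 and 10.91 in control pups (log2 change -0.61, SE 0.15, limma adjusted p = 0.198). Ndufa5, also of complex I, was at -0.52 (SE 0.12) and Atp5me, of ATP synthase, at -0.81 (SE 0.20), or -0.50 with its probe sets averaged. None passed at an adjusted p under 0.05.

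Ribosomal proteins of the cytosol lay on the other side of 0 in most genes. Of 44 tested genes 38 were higher and 6 lower, at a median of 0.070. With the values as deposited 11 were lower, at a median of 0.033, and with each array centred on its median 19 were lower, at a median of 0.010. Rpl26l1 was at 0.44 (SE 0.16) and Rpl14 at 0.26 (SE 0.12), both without overlap, and Rps4y2 at -0.84 (SE 0.37) with overlap. The lists were set side by side, and the differences between them were not tested.

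**Figure D5:**
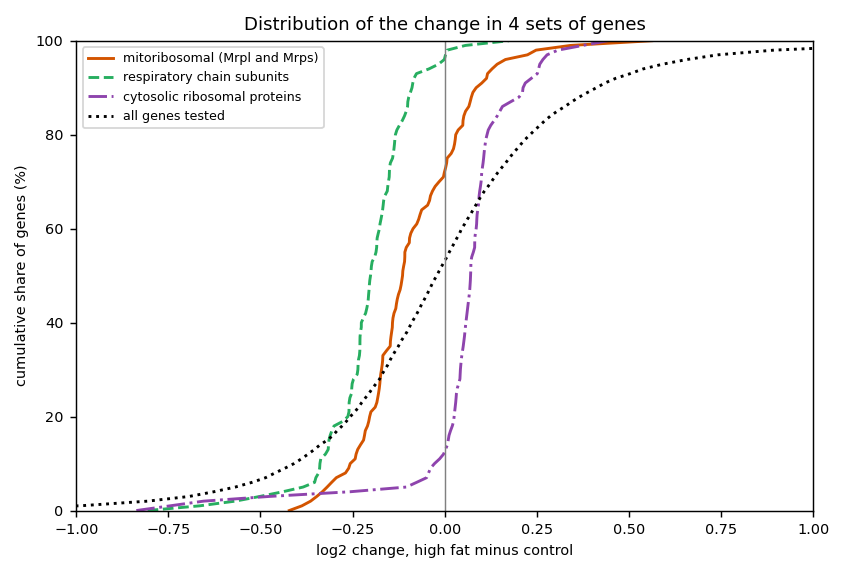
Cumulative share of genes (%) against the log2 change, high fat minus control, for the 73 mitoribosomal members, 73 respiratory chain genes, 44 cytosolic ribosomal protein genes and all 10372 genes tested. The mitoribosomal curve crosses 0 at 72.6%, between that of the respiratory chain at 95.9% and that of all genes at 53.1%, and is much steeper than that of all genes.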

How the data were processed

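The deposited table held 1 log2 value per probe set and array. Base 2 was found from the values, since only it gives every array the same 2% trimmed mean, 500.2, once undone. The summarization software and the array centring behind the values are not given in the sources used here. Per the labels' protocols, RNA was extracted with TRIzol and labelled with a 3' IVT kit. Quartiles differed between the deposited log2 arrays by up to 0.22, above a limit of 0.1, so the arrays were quantile-normalized without the 57 control probe sets of 31099. Only the 20826 probe sets paired with 1 gene were named (436 had several genes and 9780 none here), and 20758 of these took their symbol from the RefSeq gene table of GRCr8, whether or not it differed from the annotated one. The lowest 40% of probe sets were left out. The diets were compared by 2-sided moderated tests in limma 3.58.1 (R 4.3.3), adjusted by Benjamini-Hochberg over 10372 genes, and the procedure was tested on simulated data. Plots used matplotlib 3.10.9 (Python 3.11.15).

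The members and lists were chosen with earlier results of these data known. The named genes were, per subunit and direction, the 6 members with the smallest p, a set of anchor genes, members whose probe sets differ in sign, and the 3 genes of each other list with the smallest p. Further genes were named after their values were seen. No detection calls were used. Precision is limited by the number of arrays. Other settings tried were 2 other scalings, 2 other brightness filters, averaged probe sets, a robust trended variance, weighted arrays, blocking on replicate number, a covariate for RNA integrity and each array left out. The 8-letter NRF1 core and the narrower counts of 3 lists were added after the data were seen. Replicate numbers did not pair the arrays: the correlation of same-numbered deviations was between -0.14 and -0.13.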

Additional observations from a re-analysis of the deposited data

How the results depend on the processing

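No member reached an adjusted p under 0.05 under any of the 15 alternative fits, and the median change of the members stayed between -0.14 and -0.080 with 1 array left out and between -0.13 and -0.11 otherwise. Between 49 and 57 members were lower, and 37 were lower and 8 higher under every alternative, while 28 changed sign in at least 1. The count of members lower at an unadjusted p under 0.05 was 1, in place of 4, with the values as deposited, with no brightness filter, with the replicate number as a block and with the covariate for RNA integrity. With 1 array left out it was 1 to 4. In these fits all were large-subunit genes. Over the alternatives that kept all arrays the count ran from 1 to 6, and that of large-subunit genes from 1 to 5. Mean probe sets, or a robust trended variance, gave 1 such small-subunit gene. Leaving out 1 array gave 1 to 2 members higher at that level. It gave 19 to 26 lower without overlap, where 15.7% to 18.0% of all genes were, and 4 to 8 higher without overlap, where 12.98% to 15.30% of all genes were. With arrays centred on their median, 19 members were lower without overlap, where 12.9% of all genes were, and 2 were higher, where 7.68% were. The cause of these changes was not tested.

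Over all genes, 0 were higher at an adjusted p under 0.05 in limma with no filter, the replicate block or the covariate (500 to 708 at an unadjusted p under 0.05 over the settings that kept all arrays), and 0 to 2 with 1 array left out. Of lower genes, 2 passed with 60% of probe sets left out or the robust trended variance, 0 with the block or the covariate (584 to 860 unadjusted), and 0 to 2 with 1 array left out. The replicate numbers did not pair the arrays, and no array correlated best with its own number.

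Median changes of other lists moved as follows. Cytosolic ribosomal proteins were at 0.033 as deposited and 0.010 when centred. The tRNA charging genes were at -0.0069 when centred, -0.013 with 60% left out, -0.024 with mean probe sets, -0.0074 with array weights and -0.043 to 0.10 with 1 array left out. Mitochondrial DNA upkeep was at -0.0069 when centred, -0.028 with mean probe sets and -0.069 to 0.19 with 1 array left out. Genes of translation and tRNA modification were at -0.020 with the covariate and -0.028 to 0.13 with 1 array left out. The assembly genes ranged from 0.037 to 0.17, the genes outside the symbol rule from -0.30 to -0.14, members with a bacterial counterpart from -0.13 to -0.056 and mitochondria-specific members from -0.17 to -0.094, with 1 array left out.

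Of the 28 members that changed sign in at least 1 alternative, only those picked by the naming rule above are given here. The covariate for RNA integrity left the sign of 60 of the 73 members as it was. With mean probe sets, Mrpl37 was at 0.26, Mrpl40 at 0.080, Mrps18c at 0.082, Mrps24 at 0.11, Mrps9 at 0.0094, Mrps2 at -0.11 and Mrpl49 at -0.010. With the covariate, Mrpl46 was at -0.069, Mrpl12 at 0.050, Mrps30 at -0.024, Mrpl49 at -0.012 and Mrpl3 at -0.12. Mrpl49 was at -0.00065 when centred, and Mrpl3 at -0.0061 with array weights. With 1 array left out, Mrpl3 ranged from -0.12 to 0.20, Mrps22 from -0.11 to 0.082, Mrpl49 from -0.0028 to 0.078, Mrps12 from -0.16 to 0.044, Mrps18a from -0.23 to 0.013, Mrpl46 from -0.053 to 0.16 and Mrps30 from -0.052 to 0.20.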
